A study of Mus musculus with 15 samples.

Results

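The levels of 10 genes of skeletal muscle fibres were followed through a set of mouse mammary tumours: Acta1, Actn3, Ckm, Myh1, Myh2, Myh4, Tnnt3, Tnni2, Mylpf and Pvalb. They were chosen by name, with earlier results of these data known, and found through the transcript identifiers that the array files give for each probe. All 10 were on the array, with 12 probes in all, out of 28074 genes and unnamed transcripts that were tested. The tumours arose in female MMTV-PyMT mice. Their transgene puts the polyoma virus middle T oncogene under a mouse mammary tumour virus promoter, which is active in mammary epithelium, so every group carries this transgene and no group is tumour-free. T0 tumours (n = 4) were taken before any treatment. Vehicle (n = 3), B20 (n = 4) and nintedanib (n = 4) tumours were taken at the end of a treatment that began at 7 weeks of age. B20, given as B20-4.1.1, is an antibody that blocks VEGF, on which growing blood vessels depend. The dose was 5 mg per kg into the abdomen, 2 times per week. Nintedanib, a small-molecule blocker of several growth factor receptors that include those of VEGF, was dosed daily by gavage (85 mg per kg). The series asked what treatment did to gene expression in the tumours. The age at T0 and at the end of treatment, the mouse strain and the number of animals are not given in the sources used here. Nothing in the labels says that each sample is another animal. The p-values therefore rest on the spread among these samples only, and some of it may be technical.

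Skeletal muscle contracts when myosin heads of the thick filament pull on actin of the thin filament, and troponin on the thin filament lets them do so when calcium is released inside the fibre. Fibres are fast or slow by the forms of myosin, troponin and actinin they make, and fast fibres also carry much creatine kinase and parvalbumin. These genes are close to silent in mammary epithelium. The mammary fat pads lie under the skin, against the muscles of the chest and abdominal wall, and a thin sheet of skeletal muscle runs under the skin of the mouse.

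Levels are log2 of the spot intensity after the scanner software's background subtraction, minus the 75th percentile of the same array, so a level of 0 is that percentile and a step of 1 is a doubling. A fold given as "at least" sets the mean of the brighter group against that of the dim group. For the dim group, each array counts the higher of the probe's own value and the lowest signal well above background. Such a fold is a point estimate from means, not the end of an interval, and the spread between arrays is not taken into account. Between 53.5% and 68.1% of probes were well above background on 14 arrays, and 84.2% on the array of T0 replicate 3. No spot was saturated. Epithelial markers were present throughout: all 11 measured genes of the tumour epithelium list, keratins, claudins and Epcam among them, were well above background on all 15 arrays. Their mean level lay between 3.79 and 4.39. Whether this signal came from tumour cells or from normal mammary epithelium was not tested. The T0 arrays lay on 2 slides of their own, with scans and a Feature Extraction protocol of their own. T0 therefore cannot be told apart from slide, scan and protocol in any comparison with it. T0 1 and 2 shared 1 slide and scan, and T0 3 and 4 the other. A difference between these pairs of T0 arrays cannot be told apart from slide and scan. The other arrays lay on a slide of 8 arrays (vehicle 1 and 2, B20 1 to 3, nintedanib 1 to 3) and a slide of 3 (vehicle 3, B20 4, nintedanib 4). T0 replicate 4 carries a vehicle label besides its label of before treatment, and its title placed it in T0 here.

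The thin filament and the Z disc were represented by Acta1, Actn3, Tnnt3 and Tnni2. Acta1 encodes the actin of adult skeletal muscle. Its level was 7.81, 6.30, 4.03 and 2.26 on T0 arrays 1 to 4, 0.50, 0.54 and 3.17 on vehicle arrays 1 to 3, 7.87, 1.82, 4.04 and 0.63 on B20 arrays 1 to 4, and 2.34, 3.38, 5.43 and 1.23 on nintedanib arrays 1 to 4. T0 1 and 2 and B20 1 were the high arrays, and every group overlapped every other. Actn3 encodes the alpha-actinin that anchors thin filaments at the Z discs of fast fibres. Its level was 5.04, 3.13, 0.63 and -1.17 in T0, -3.07, -3.19 and -0.25 in vehicle, 4.96, -1.42, 1.16 and -2.61 in B20, and -0.85, -0.34, 1.41 and -2.61 in nintedanib, in the same array order. The same 3 arrays stood highest, with vehicle 1 and 2 and the fourth arrays of B20 and nintedanib lowest.

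Tnnt3, the troponin T of fast fibres that ties the troponin complex to tropomyosin, was at 7.80, 6.23, 3.77 and 2.05 in T0, -0.73, -0.48 and 2.52 in vehicle, 7.32, 1.17, 3.78 and 0.18 in B20, and 1.52, 2.28, 4.45 and -0.21 in nintedanib. Its second probe followed the first over the 15 arrays (r = 0.978), and gave the vehicle to T0 difference as -3.66 where the brighter probe gave -4.52. For nintedanib against vehicle the second probe gave 0.44 and the brighter 1.57. Tnni2, the inhibitory troponin of fast fibres, was at 9.34, 8.02, 5.78 and 4.13 in T0, 1.56, 2.08 and 4.84 in vehicle, 8.58, 3.20, 5.64 and 2.60 in B20, and 3.53, 3.82, 5.98 and 1.80 in nintedanib. Vehicle 1 and 2 were among the 3 lowest arrays for Tnni2, while vehicle 3 lay above T0 4.

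The thick filament was represented by the heavy chains Myh1 (type 2X fibres), Myh2 (type 2A) and Myh4 (type 2B), which lie next to each other on chromosome 11, and by the light chain Mylpf. These neighbours moved together over the arrays, as did the members in general (median r of 0.968 over 45 pairs). Whether the sequence before their starts has a part in this was not tested. The 250 bases before the RefSeq start of Myh1, Myh2 and Myh4 are shown because the 3 genes are neighbours. A stretch of 20 bases, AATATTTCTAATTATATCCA, was found in all 3 and in only 3 of 32851 RefSeq promoter windows of this length. It began 165 bases before the start of Myh1, 130 before that of Myh2 and 163 before that of Myh4. The sequence before Acta1 is shown beside them as the gene with the most kinds of the motifs searched, outside the myosins. Sequences are from RefSeq on GRCm38.p6, in the direction of the gene: Myh1 at chr11:67199852-67200101 (+), Myh2 at chr11:67170777-67171026 (+), Myh4 at chr11:67237562-67237811 (+) and Acta1 at chr8:123894776-123895025 (-). Capitals in the myosins mark the shared stretch and TATAAA on either strand, and in Acta1 they mark CANNTG, the CArG box and TATAAA.
Myh1: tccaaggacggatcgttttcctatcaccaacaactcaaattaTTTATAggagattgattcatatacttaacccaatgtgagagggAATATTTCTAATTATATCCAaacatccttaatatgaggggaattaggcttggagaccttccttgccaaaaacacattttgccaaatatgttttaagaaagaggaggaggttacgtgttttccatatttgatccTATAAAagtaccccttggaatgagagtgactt
Myh2: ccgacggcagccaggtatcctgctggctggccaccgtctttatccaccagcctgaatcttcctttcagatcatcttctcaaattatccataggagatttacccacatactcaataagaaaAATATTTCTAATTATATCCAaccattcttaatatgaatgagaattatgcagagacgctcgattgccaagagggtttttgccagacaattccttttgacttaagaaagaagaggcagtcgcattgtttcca
Myh4: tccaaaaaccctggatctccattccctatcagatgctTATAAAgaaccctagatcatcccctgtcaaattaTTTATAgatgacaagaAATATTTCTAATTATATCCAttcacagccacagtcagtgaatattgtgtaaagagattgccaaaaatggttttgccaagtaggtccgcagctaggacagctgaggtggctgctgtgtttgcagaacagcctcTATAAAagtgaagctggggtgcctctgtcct
Acta1: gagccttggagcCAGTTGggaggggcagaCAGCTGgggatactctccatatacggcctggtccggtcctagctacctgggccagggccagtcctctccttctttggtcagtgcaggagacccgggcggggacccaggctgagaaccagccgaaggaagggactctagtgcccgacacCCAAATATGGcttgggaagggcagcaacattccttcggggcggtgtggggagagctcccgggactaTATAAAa

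CANNTG is the E-box bound by MyoD and its relatives, the CArG box is bound by serum response factor, and the MEF2 site by MEF2 factors. RefSeq windows were at hand for 7 of the 10 genes, 8 windows in all with 2 for Pvalb. CANNTG, searched on both strands, was in 5 of these 8 (Acta1, Ckm, Myh4, Mylpf and Pvalb) and in 66.2% of all 32851 windows. TATAAA, on either strand, was in 3 (Acta1, Myh1 and Myh4) and in 12.4% of all. The CArG box was in 2 (Acta1 and Myh4) and in 1.47% of all, and the MEF2 site in 3 (Myh1, Myh4 and Pvalb) and in 2.92% of all. The MEF2 sites of Myh1 and Myh4, which began 211 and 182 bases before the start, overlapped matches to TATAAA at 208 and 179. A match to these letters is not a measured binding site.

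Myh1 was at 5.70, 4.28, 2.24 and 0.04 in T0, -1.04, -1.29 and 1.61 in vehicle, 3.91, -1.33, 1.39 and -0.96 in B20, and -0.89, -0.19, 1.24 and -2.31 in nintedanib. Myh2 was at 3.99, 3.23, 2.07 and -1.12 in T0, -3.53, -2.77 and 0.51 in vehicle, 3.26, -5.59, 0.26 and -1.78 in B20, and -1.28, -0.41, 0.02 and -3.48 in nintedanib. Myh4 was at 8.80, 7.41, 5.35 and 3.41 in T0, 1.06, 1.18 and 3.95 in vehicle, 7.93, 2.49, 5.36 and 1.48 in B20, and 3.52, 3.97, 4.68 and 1.72 in nintedanib. All 3 were highest on T0 1 and high on T0 2 and B20 1. The lowest Myh2 value, on B20 2, was not well above background. These heavy chains and Myh8 are near-identical in sequence, the probe sequences were not used here, and whether each probe sees only its own gene was not tested. Mylpf, the regulatory light chain of fast fibres, was well above background on only 8 of 15 arrays (3 of T0, 1 of vehicle, 2 of B20 and 2 of nintedanib). Its level was 1.04, -1.16, -2.84 and -5.20 in T0, -5.55, -6.30 and -4.31 in vehicle, 0.59, -4.95, -3.60 and -5.24 in B20, and -5.53, -4.24, -2.16 and -7.17 in nintedanib. The order of the arrays was that of the other members at the top, with T0 1 and B20 1 highest.

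Energy and calcium handling were represented by Ckm and Pvalb. Ckm encodes the muscle creatine kinase, which rebuilds ATP from phosphocreatine. It was at 5.58, 3.81, 1.01 and 0.12 in T0, -2.01, -1.93 and 0.39 in vehicle, 6.18, 0.15, 2.26 and -1.35 in B20, and 0.15, 0.60, 2.96 and -1.48 in nintedanib. B20 1 was its highest array, as for Acta1. Pvalb, the calcium buffer of fast fibres, was at 8.36, 6.74, 4.35 and 2.24 in T0, 0.28, 0.68 and 3.80 in vehicle, 7.66, 2.06, 4.38 and 1.71 in B20, and 1.96, 2.30, 4.50 and 1.07 in nintedanib. Its second probe followed the first (r = 0.985), but gave the vehicle to T0 difference as -4.84 where the brighter probe gave -3.84.

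**Figure D1:**
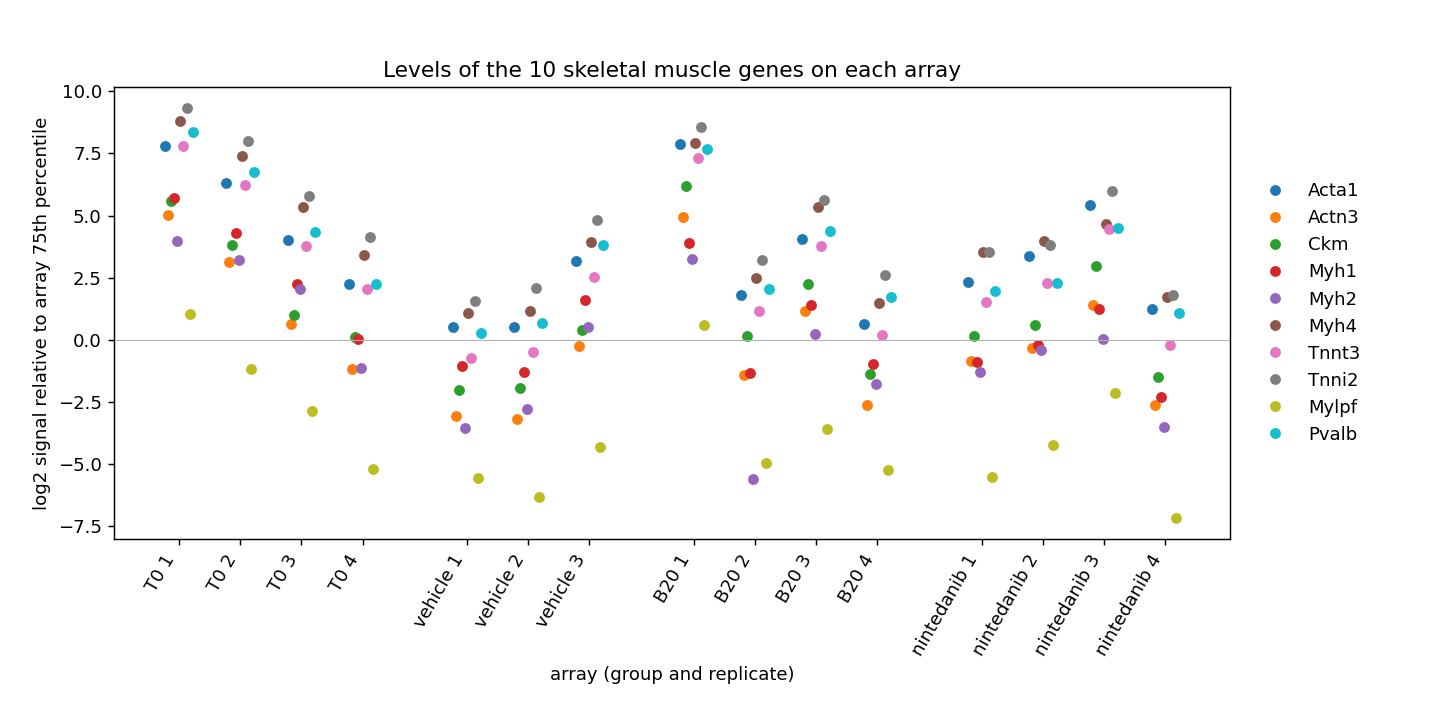
Log2 level of each of the 10 muscle genes (coloured points, vertical axis, relative to the 75th percentile of the array) on each of the 15 arrays (horizontal axis). The points of T0 1, T0 2 and B20 1 stand above those of the other arrays gene by gene, and arrays of the same group lie several log2 units apart.

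The members differed more between arrays of the same group than nearly any other gene measured. Between its lowest and highest array a member spanned 7.37 log2 units (Acta1, 165-fold) to 9.58 (Myh2, 763-fold, with its lowest value not well above background). The pooled within-group SD was 2.08 (Myh1) to 2.58 (Myh2), against a median of 0.388 over all genes tested. Each of the 10 had a larger SD than at least 99.55% of the genes tested, and 8 of the 10 were among the 100 largest. Since the genes were chosen with earlier results of these data known, these ranks are a description and not a test. The spread was present in every group: member SDs ran from 2.25 to 2.73 in T0, 1.01 to 2.15 in vehicle, 2.42 to 3.72 in B20 and 1.26 to 2.12 in nintedanib, where the median over all genes was 0.311 to 0.396.

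**Figure D2:**
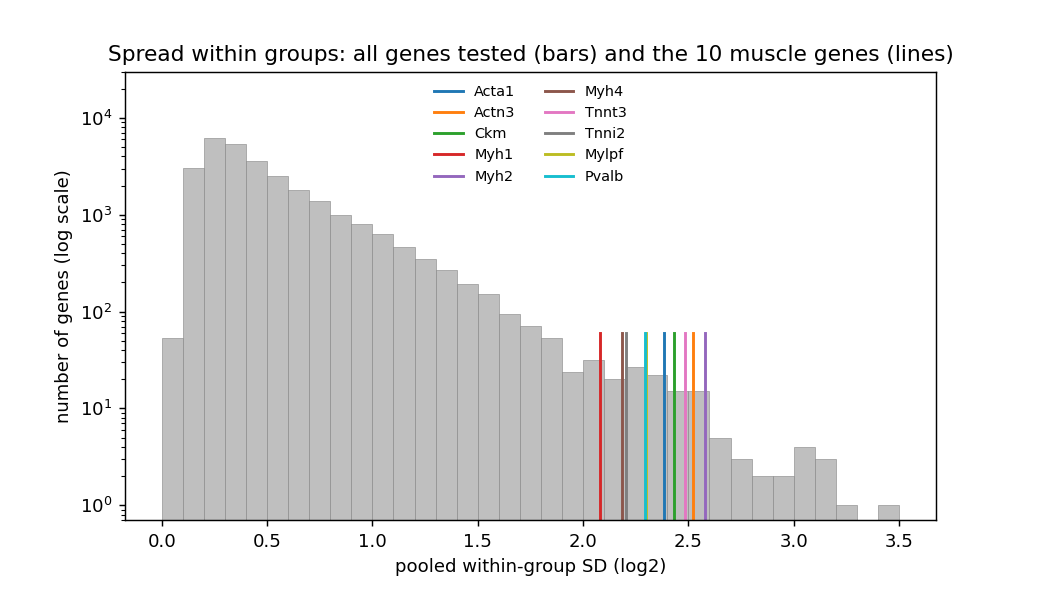
Number of genes (log scale) by pooled within-group SD in log2 (bars, all genes tested), with the SD of each muscle gene as a coloured line whose height has no meaning. The 10 lines lie between 2.08 and 2.58, in the far right tail, with those of Mylpf and Pvalb on top of each other at 2.30.

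The arrays stood in nearly the same order for every member. T0 1, T0 2 and B20 1 were the top 3 arrays for all 10 genes. T0 1 and 2 shared a slide and scan apart from those of T0 3 and 4. Vehicle 1, vehicle 2, B20 4 and nintedanib 4 were among the lowest 5 for all 10. The mean level of the 10 genes was 6.34, 4.80, 2.64 and 0.67 on the T0 arrays, -1.25, -1.15 and 1.62 on the vehicle arrays, 5.83, -0.24, 2.47 and -0.53 on the B20 arrays, and 0.45, 1.12, 2.85 and -1.14 on the nintedanib arrays. Over the 45 pairs of members, the correlation over 15 arrays had a median r of 0.968 and a lowest of 0.832 (Ckm with Myh2). These points share each array's scaling and total signal, so r is given as a description. It was not carried by the 2 arrays farthest from the median: without T0 1 and B20 1 the median was 0.942 and the lowest 0.733. It was not carried by the groups either, since deviations from the group means gave a median of 0.978. In a dissected tumour, fewer muscle cells and less muscle RNA per cell cannot be told apart.

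All 6 comparisons between groups came from the same model over the 15 arrays. The first set vehicle tumours at the end of treatment against T0, which compares tumours given no drug at the start and at the end. All 10 members had a lower mean in vehicle, as had 46% of all genes, with a median difference of -3.90 (14.9-fold), against a median of 0.04 over all genes tested. The largest was Tnnt3 (-4.52 ± 1.72, SE, 95% interval -8.23 to -0.82) and the smallest Myh1 (-3.30 ± 1.44). Unadjusted p-values of limma's moderated test were under 0.05 for 9 of the 10 (0.0158 for Myh4 to 0.0440 for Myh2), where 21.3% of all genes reached that in either direction and 9% as lower. A gene was called where its p, adjusted by the method of Benjamini and Hochberg over all 28074 genes, was under 0.05. None of the 10 was called, with adjusted p between 0.128 (Myh4) and 0.249 (Mylpf), while 4.92% of all genes were called. Tnnt3 averaged 0.44 ± 1.81 (SD, n = 3) in vehicle and 4.96 ± 2.55 (n = 4) in T0, and Myh4, with the lowest p, 2.06 ± 1.63 and 6.24 ± 2.36. The groups overlapped in all 10, with vehicle 3 above T0 4 each time, where 16.6% of all genes did not overlap. The calls depended on how arrays were weighted. Weights estimated by limma from the spread of each array were lowest for T0 4 (0.312) and T0 3 (0.364), the T0 arrays lowest for muscle. T0 2 had 2.71. With these weights all 10 were called, each lower (median -5.39), where 16.5% of all genes were called in either direction.

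Nintedanib tumours were lower than T0 in all 10 means, as were 48.9% of all genes, with a median of -2.86 (7.26-fold). Myh1 differed most (-3.60 ± 1.34, adjusted p = 0.0961 by limma) and Acta1 least (-2.01 ± 1.53, adjusted p = 0.423). None was called, against 11.4% of all genes, and Myh1 alone had an unadjusted p under 0.05, against 28.2%. Without T0 4, Myh1 was called (-4.61, adjusted p = 0.0352), where 13.4% of all genes were called in either direction, and with array weights 7 of the 10 were, where 26% were.

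B20 tumours were lower than T0 with a median of -1.66 (3.16-fold), in all 10 means and 43.6% of all genes, from -0.82 ± 1.56 for Ckm to -3.003 ± 1.65 for Myh2. None was called, against 9.5% of all genes, and none had an unadjusted p under 0.05, against 26.1%. The lowest adjusted p in limma was 0.272, for Myh2. The median was -2.97 without B20 1 and -0.75 without T0 1. These 3 comparisons share the T0 arrays, so the common direction is not 3 separate observations. With slide as a random block the medians were -3.95 for vehicle, -2.96 for nintedanib and -1.78 for B20, with no member called.

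At the end of treatment, B20 tumours had the higher mean in all 10 members against vehicle, by a median of 2.22 (4.66-fold), against 0.04 over all genes, of which 55.1% were higher. Ckm averaged 1.81 ± 3.27 (SD, n = 4) in B20 and -1.18 ± 1.36 (n = 3) in vehicle. It differed most (2.99 ± 1.68, 95% interval -0.63 to 6.62) and Myh2 least (0.97 ± 1.79). None was called (adjusted p = 0.999 for each in limma), with 0% of all genes called and 3.25% at an unadjusted p under 0.05, which no member reached. Without B20 1 the median was 1.02, and Myh1 (-0.06) and Myh2 (-0.44) turned lower.

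Nintedanib against vehicle gave 9 of 10 higher means (48.8% of all genes), with a median of 1.18 (2.27-fold), against -0.01 over all genes. Ckm, at 0.56 ± 1.83 (SD, n = 4) in nintedanib, differed most (1.74 ± 1.68), and Myh1 least and in the other direction (-0.30 ± 1.44, 95% interval -3.41 to 2.81). None was called (adjusted p = 0.999 in limma) and none had an unadjusted p under 0.05, where 0% and 4.82% of all genes did. Without vehicle 3 the median was 2.16, and without nintedanib 3 it was 0.49. This comparison shares the vehicle arrays with that of B20, so the common direction is not a separate observation.

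Nintedanib against B20 gave lower means in all 10 members (55.3% of all genes), with a median of -1.17 (2.25-fold), against -0.04 over all genes. The largest difference was that of Pvalb (-1.497 ± 1.47, adjusted p = 0.803 in limma) and the smallest that of Myh2 (-0.33 ± 1.65). None was called and none had an unadjusted p under 0.05, where 0% and 9.36% of all genes did. The direction of the median depended on B20 1: without that array it was 0.25. Acta1 (0.93), Myh2 (1.08), Actn3, Ckm, Myh4 and Tnnt3 then turned higher, while Myh1, Tnni2, Mylpf and Pvalb stayed lower in nintedanib. The 2 groups overlapped in every member in the other comparisons too, where the share of all genes that did not was 16.8% for nintedanib and 15.4% for B20 against T0, 7.34% for nintedanib and 5.39% for B20 against vehicle, and 5.71% for nintedanib against B20. SEs of 1.34 to 1.79 in these comparisons mean that differences of several-fold in either direction lie inside the intervals, so the groups are not shown to be alike.

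**Figure D3:**
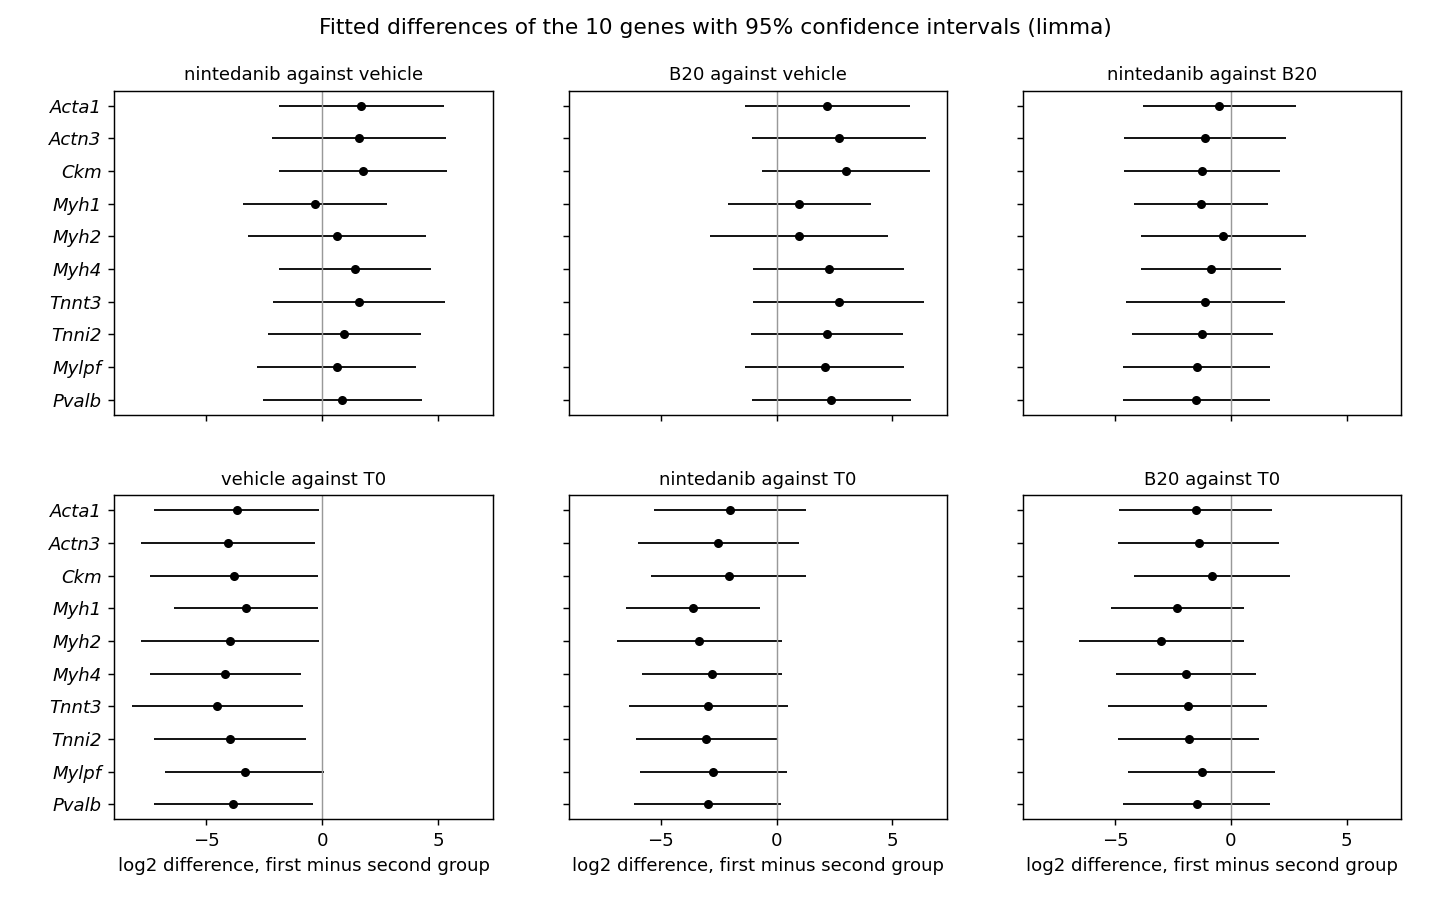
Fitted log2 difference (horizontal axis, first group minus second) of each muscle gene (rows) in each of the 6 comparisons (panels), with 95% confidence intervals as bars. All intervals among the end-of-treatment groups and in B20 against T0 cross 0, in nintedanib against T0 all but that of Myh1 do, and in vehicle against T0 all but that of Mylpf lie below 0, before adjustment over genes.

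The end-of-treatment differences from vehicle ran in opposite directions on the 2 slides. On the slide of 8 arrays, nintedanib was above vehicle in all 10 members (3 against 2 arrays, median 2.78) and B20 was above vehicle in all 10 (median 4.10). On the slide of 3 arrays, with 1 array a group, nintedanib was below vehicle in all 10 (median -2.73) and B20 was below vehicle in all 10 (median -2.32). Nintedanib against B20 was lower in 9 of 10 on the first slide (median -1.33) and in 7 of 10 on the second (median -0.52). With slide as a fixed block the medians were 1.08 for nintedanib against vehicle, 2.12 for B20 against vehicle and -1.17 for nintedanib against B20, and no member was called. The order of group means, T0 highest, then B20, nintedanib and vehicle, held for 9 of 10 members, with Myh1 having vehicle above nintedanib. No pair of neighbours in this order differed at an unadjusted p under 0.05 in any member.

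Relative to the other 9 members on the same array, a few genes shifted. For this each gene's level was set against the mean of the other 9 on its array, and the mean of that offset over the 15 arrays was taken as 0. Myh1 was high on all 3 vehicle arrays (0.74 to 1.13) and on all 4 T0 arrays (0.18 to 0.45), and low on all 4 nintedanib arrays (-0.90 to -0.40) and on 3 of the 4 B20 arrays (-1.24 on B20 1). Ckm was high on B20 1 (0.99) and B20 2 (1.03) and low on T0 3 (-1.21). Acta1 was low on the T0 and vehicle arrays (-0.45 to -0.04) and high on all 4 nintedanib arrays (0.12 to 0.87). Myh2 was at -3.64 on B20 2, where it was not well above background, and at 1.67 on T0 3. These offsets were picked out after their values were seen and were not tested.

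**Figure D4:**
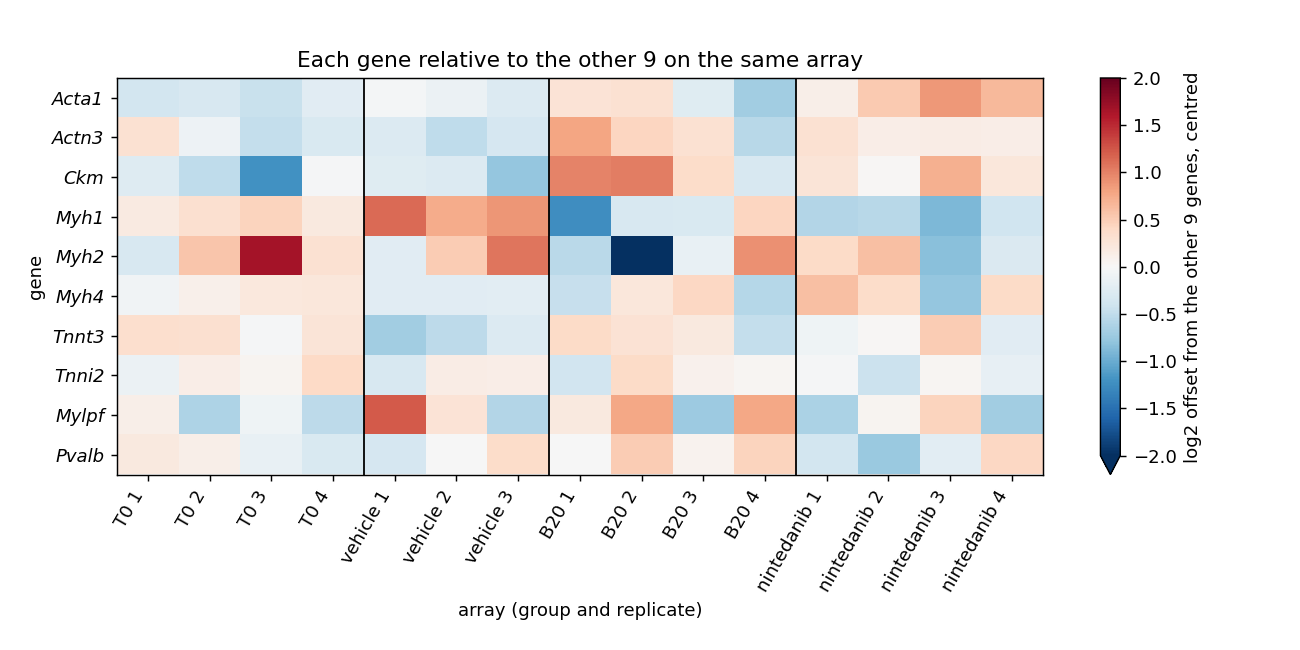
Log2 offset of each muscle gene (rows) from the mean of the other 9 on the same array (columns), centred on 0 over the 15 arrays, with red above and blue below and black lines between groups. The Myh1 row is red in vehicle and T0 and blue in nintedanib, and the darkest cell, Myh2 on B20 2, is at -3.64, beyond the end of the scale.

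The 12 genes outside the members whose level over the 15 arrays was most like their mean were Tpm1 (r = 0.997), Ampd1, Tnnc2, Pgam2, Cox6a2, Myot, Myoz1, Rpl3l, Eno3, Cacna1s, Tcap and Myh8 (r = 0.991). Tnnc2 is the calcium-binding troponin of fast fibres, Tpm1 a tropomyosin, Ampd1 the muscle AMP deaminase, Pgam2 and Eno3 muscle forms of glycolytic enzymes, Cox6a2 a muscle subunit of cytochrome oxidase, Cacna1s the voltage sensor of the T-tubule, and Tcap, Myot and Myoz1 Z disc proteins. They spanned 6.53 (Eno3) to 8.43 (Myoz1) log2 units between arrays, where the members spanned 7.37 to 9.58. Of 28036 genes compared, 307 had r above 0.8 with the member mean, and the median r over all of them was -0.10.

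Most measured genes of the fast fibre and sarcomere lists followed the members. Of the fast fibre list (Tnnc2, Mybpc2, Myl1, Myoz1, Atp2a1, Casq1, Mylk2, Pgam2, Pygm and Eno3), 10 of 10 had r above 0.8 (median 0.987). So did 18 of 19 measured sarcomere scaffold genes such as Ttn, Neb and Myom2 (median 0.961), 13 of 15 genes of excitation-contraction coupling such as Ryr1 and Trdn (0.8999), and 9 of 10 of muscle energy metabolism (0.925). Of the slow fibre list only Tnnt1 and Myoz2 passed 0.8, 2 of 9 (median 0.613). Some slow genes were dim: Myh7b was well above background on 6 arrays, Tnni1 on 7 and Myoz2 on 9. The part of low signal in these correlations was not tested. Slow myosin Myh7 lay between -4.15 and -1.21, and its highest arrays were B20 1 (-1.21), T0 3 (-1.52) and T0 1 (-1.60), where T0 2, among the top 3 arrays of the fast genes, was at -3.07. T0 3 was also the array with the most probes well above background (84.2%). Of the regulators and developmental myosins 4 of 9 passed 0.8. Myf6, the regulator of mature fibres, followed the members from 0.93 on T0 1 to -4.65 on vehicle 2. Pax7, the satellite cell factor, was well above background on 4 arrays only, and Myf5 and embryonic Myh3 did not pass the filter on dim probes. No cardiac gene passed 0.8 (0 of 7, median -0.25), and 1 of them, Mybpc3, was well above background on 3 arrays only.

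In vehicle against T0 the other muscle lists had mostly lower means as well, beside 46% of all genes with a difference below 0 and 4.92% called. All 10 fast fibre genes had lower means (median -3.55), led by Myoz1 (-4.36 ± 1.64, adjusted p = 0.142 in limma), and none was called. The 9 slow fibre genes were all lower (median -1.42), with Myl3, a slow light chain, at -2.61 ± 0.73 (adjusted p = 0.0573). The 19 scaffold genes (median -2.96) and the 15 coupling genes (median -2.21) were all lower with none called. The scaffold gene of lowest p was Lmod2, of the thin filament (-2.96 ± 0.82, at least 7.79-fold lower, adjusted p = 0.0549 in limma, not well above background in vehicle). The coupling gene of lowest p was Sypl2 (-2.44 ± 0.82, adjusted p = 0.102 in limma, well above background on 1 vehicle array). The largest differences of the 2 lists were those of Tcap (-4.12) and Trdn (-4.47). Among the 10 genes of muscle energy metabolism (median -3.45), 1 was called: Fabp3, which carries fatty acids in muscle and in brown fat, fell by 4.68 (SE 1.11, adjusted p = 0.0307). Regulators and developmental myosins were lower in 7 of 9 (median -0.41), from Myh8 at -4.05 ± 1.51 to values near 0. Cardiac genes were lower in 4 of 7 (median -0.01).

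In the other comparisons with T0, where 11.4% (nintedanib) and 9.5% (B20) of all genes were called, the muscle lists gave 3 calls. Against T0, nintedanib tumours had lower Lmod2 (at least 8.60-fold, adjusted p = 0.0205, not well above background in nintedanib), the Z disc gene Ldb3 (-0.87 ± 0.25, adjusted p = 0.0419) and Fabp3 (-4.002 ± 1.03, adjusted p = 0.0255), by limma. The medians were -2.69 for fast fibre, -1.46 for slow fibre, -2.36 for scaffold, -1.62 for coupling and -2.63 for energy genes. In B20 against T0 the same lists had medians of -1.57, -0.92, -1.60, -1.01 and -1.56, with no gene called. Among the end-of-treatment groups no gene of any list was called, with 0% of all genes called. The fast fibre genes had medians of 1.87 for B20 against vehicle (10 of 10 higher), 1.03 for nintedanib against vehicle (10 of 10) and -1.11 for nintedanib against B20 (10 of 10 lower).

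Markers of adipocytes, which fill the mammary fat pad, were lower at the end of treatment than at T0. Within T0, vehicle and B20 the arrays stood in the same order for their mean as for the mean of the members, and so did nintedanib 1 to 3, with nintedanib 4 as the exception. Their mean level was 5.49, 5.05, 3.74 and 3.37 on the T0 arrays, -1.47, -0.28 and 0.50 on the vehicle arrays, 2.32, 1.42, 1.93 and 0.33 on the B20 arrays, and 0.17, 0.57, 1.75 and 3.103 on the nintedanib arrays. The summed linear signal of the 9 adipocyte genes, relative to the 75th percentile, ranged from 416 to 1504 in T0, 26.9 to 72.6 in vehicle, 48.6 to 208 in B20 and 49.3 to 299 in nintedanib. Nintedanib 4 had the highest adipocyte level of the end-of-treatment arrays and was among the lowest for muscle, while B20 1, second for muscle, lay below all 4 T0 arrays in adipocyte genes. Against T0, 8 of the 9 adipocyte genes were called lower in each of the 3 groups, where 4.92% (vehicle), 11.4% (nintedanib) and 9.5% (B20) of all genes were called. Plin1, which coats the fat droplet, fell by 6.46 in vehicle (SE 1.00, adjusted p = 0.00623 in limma). Fabp4, the fatty acid carrier of adipocytes, fell there by 4.89 (SE 0.72, adjusted p = 0.00566 in limma). The adipocyte median was -4.98 in vehicle, -3.20 in nintedanib and -2.95 in B20. At the end of treatment the adipocyte genes had a median of 2.12 in B20 against vehicle (8 of 9 higher) and 2.20 in nintedanib against vehicle (9 of 9), the direction of the members' medians. None was called by limma, and 6 and 5 of the 9 had an unadjusted p under 0.05, where 3.25% and 4.82% of all genes did. Both comparisons use the same vehicle arrays, and both lists are read on the same arrays, so the common directions are not separate observations. Nintedanib against B20 had an adipocyte median of -0.20. The correlation of single adipocyte genes with the member mean ran from 0.558 (Pnpla2) to 0.732 (Fabp4), and none of 9 passed 0.8. The part of adipose tissue in the muscle result was not tested.

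The 5 brown fat genes did not share a pattern. Ucp1 (r = 0.796 with the member mean), Cidea (0.659) and Elovl3 (0.614) were highest on T0 1 and 2, while Dio2 (-0.12) was highest within T0 on T0 4 (-0.26, against -0.99 on T0 1) and Zic1 (-0.26) ranged only from -3.26 to -2.84 in T0. Ucp1, the heat-producing uncoupling protein, was at 6.75 and 3.34 on T0 1 and 2, at -2.76 and -0.56 on T0 3 and 4, between -6.85 and -5.86 in vehicle, and at 1.03 on B20 1 and 1.32 on nintedanib 3. In vehicle, where it was not well above background, it was at least 285-fold lower than in T0 (difference of means -8.15, adjusted p = 0.0536 in limma, not called). The list median was -2.94 over 5 genes with none called. The smooth muscle list was lower than T0 in 8 of 9 genes of vehicle (median -1.07). Of these 9, Cnn1 alone, a calponin of smooth muscle and myoepithelium, was called (-2.92 ± 0.69, adjusted p = 0.0299 in limma), where 4.92% of all genes were. Cnn1 was also the only one called in B20 against T0 (-2.20 ± 0.64, adjusted p = 0.0462 in limma), where 9.5% of all genes were. The mean level of the list ran from -0.67 to 1.70 in T0 and from -0.86 to 0.34 at the end of treatment. Tumour epithelium genes were lowest on T0 1 (3.79), B20 1 (3.84) and nintedanib 3 (3.85), 3 of the arrays high for muscle. Of the other arrays high for muscle, T0 2 was at 4.05, and T0 3 had the highest epithelium level of the 15 arrays (4.39). The vehicle to T0 median of the 11 epithelium genes was -0.18, with none called. In nintedanib against T0, 1 of the 11, the luminal factor Elf5, was called lower by 0.76 (SE 0.16, adjusted p = 0.0125 in limma), where 11.4% of all genes were called. Skin, Schwann cell and tendon lists had vehicle to T0 medians of -0.12, -0.49 and 0.02 over 5 genes each, with none called. The part of these tissues in the muscle result was not tested.

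**Figure D5:**
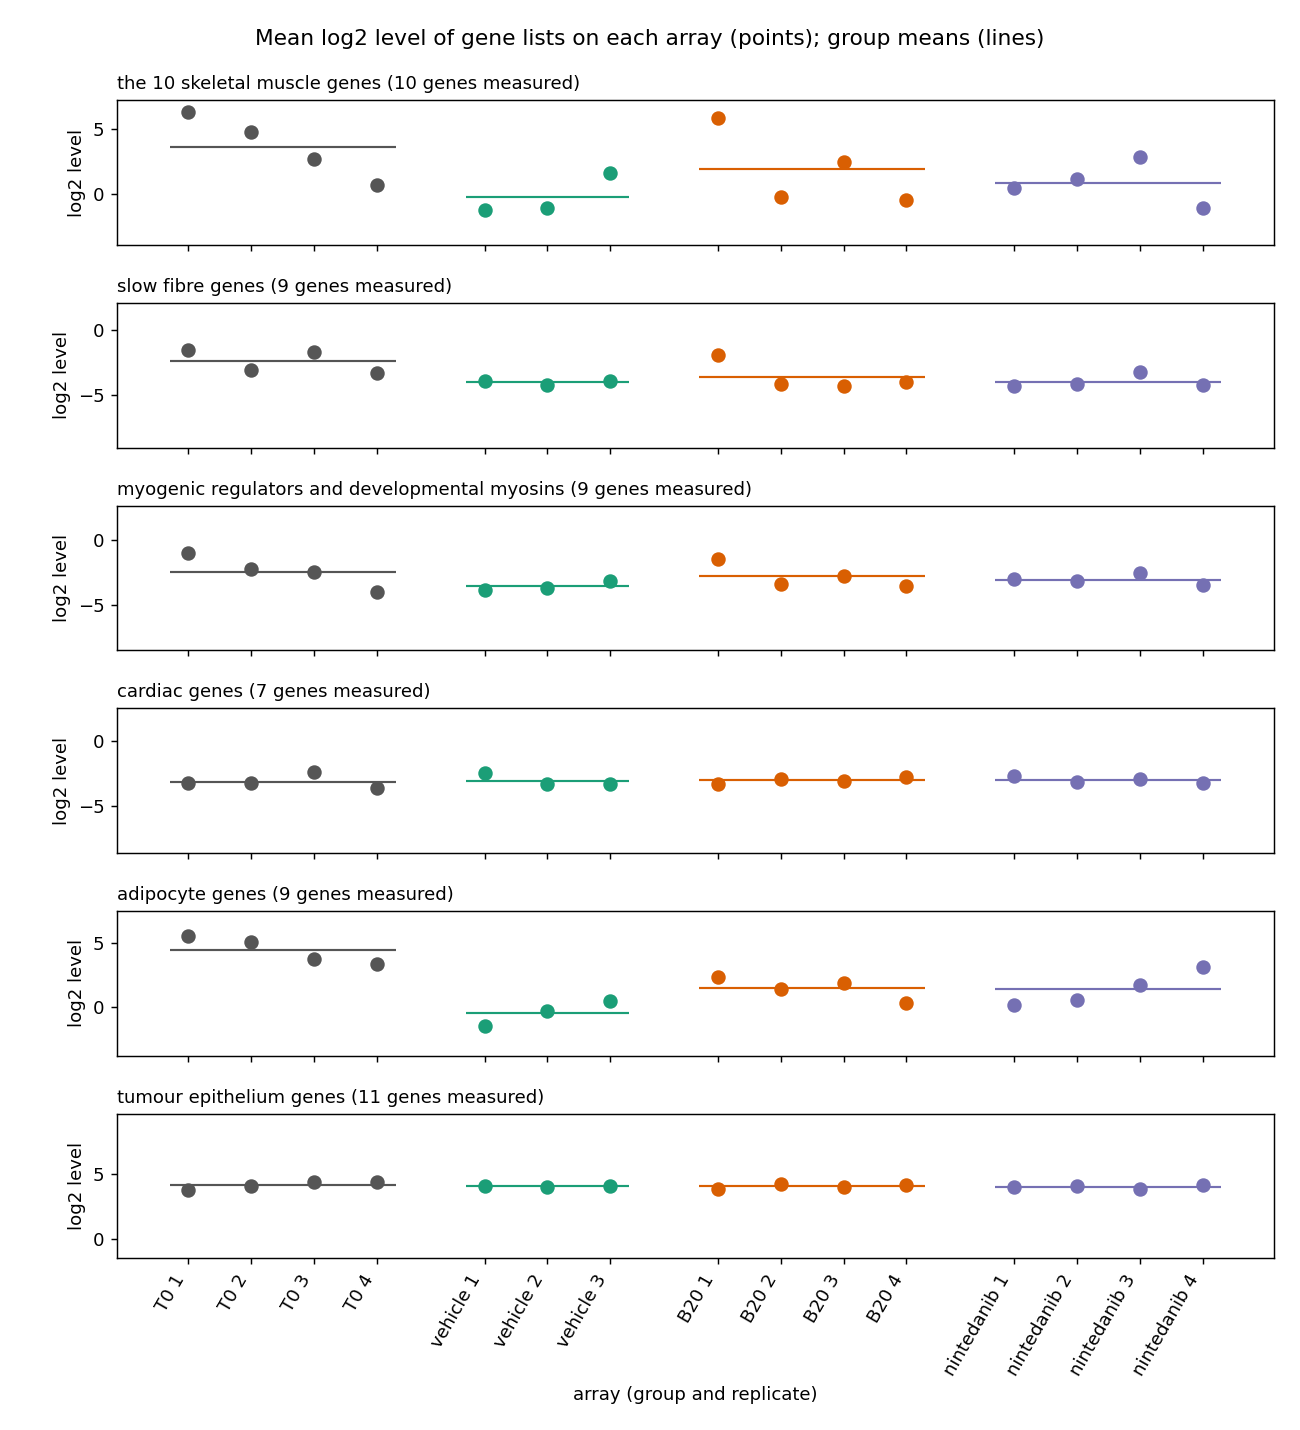
Mean log2 level (vertical axes, each spanning the same number of log2 units) of the 10 muscle genes and of 5 gene lists on each array (points, coloured by group), with group means as lines. The muscle panel ranges from -1.25 to 6.34, the adipocyte panel from -1.47 to 5.49 in the same array order within each group except for nintedanib 4, and the tumour epithelium panel only from 3.79 to 4.39.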

How the data were processed

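The 15 samples were hybridised to Agilent 1-colour mouse arrays (design 028005), read with scanner G2505C and Feature Extraction 10.7.3.1 on grid build mm9, per the file headers. The deposited intensity values are background-subtracted signals per spot, not scaled between arrays, with the median spot and background intensities and other flags per spot, per the file headers. The authors' deposited value table holds log2 values with scaling not stated, and it served as an alternative. Control spots and spots marked as outliers were left out, spots of a probe were averaged, and 82 probe values were then missing. Log2 intensity minus the array's 75th percentile was used, for probes well above background on at least 3 arrays, with the brightest probe of each gene: 28074 genes and unnamed transcripts, 16140 of them with a symbol. Symbols were found through the transcript identifiers with RefSeq tables (26056 of 55681 probes matched). Limma 3.58.1 (lmFit, eBayes) in R 4.3.3 fitted the 4 groups, with Benjamini-Hochberg adjustment over all genes, and the script was tested on simulated data. Precision is limited by the number of arrays. The genes named are all members, the 12 genes most like their mean, and in each list and comparison up to 3 genes of lowest p. The members and lists were chosen with earlier results of these data known. Alternatives were other background corrections, scalings, probe filters and probe choices, the authors' values, slide and replicate number as blocks, array weights, the 2 groups alone, and each array left out.

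Array order, slide and scan were read from the file headers. Same-numbered arrays of different groups did not deviate together (21 pairs, median r 0.008), so replicate numbers were not taken as pairs.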

Additional observations from a re-analysis of the deposited data

Results flagged for a closer look

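In T0, B20 and nintedanib, the groups of 4 arrays, no member had an array apart from its group by Dixon's criterion, which was applied there to 72 sets of arrays (30 of members and 42 of gene lists), where chance marks about 1 in 20. Vehicle, with 3 arrays, was not tested, and its replicate 3 lay above its other 2 arrays in every member (3.17 against 0.50 and 0.54 for Acta1). The mean of the 9 slow fibre genes did so in 2 groups. In B20 it was -1.94 on replicate 1 and -4.31 to -4.05 on the other 3 arrays. In nintedanib it was -3.29 on replicate 3 and -4.34 to -4.18 on the others. These 2 arrays were also the highest of their groups for the fast fibre members.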

How the results depend on the processing

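Each of the 10 differences was recomputed under the alternatives, 1218 values in all, of which 1177 kept their direction and their side of the threshold. The number of members called rose from 0 in 4 cases: to 10 (vehicle against T0) and 7 (nintedanib against T0) with array weights, to 1 with the replicate block, where 4.4% of all genes were called (Myh4 in vehicle against T0, -5.00 ± 1.16, adjusted p = 0.0408 in limma), and to 1 without T0 replicate 4 (nintedanib against T0). With the replicate block, the median was 1.99 for nintedanib against vehicle, 3.06 for B20 against vehicle and -4.66 for vehicle against T0. The replicate numbers are shared numbers only: 4 arrays correlated best with one of their own number.

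Leaving out 1 array gave medians of 0.49 to 2.16 for nintedanib against vehicle, 1.02 to 3.19 for B20 against vehicle, -2.05 to 0.25 for nintedanib against B20, -4.97 to -2.95 for vehicle, -3.85 to -1.95 for nintedanib and -2.97 to -0.75 for B20 against T0, with 0 to 1 members called. The other alternatives gave 0.98 to 2.78, 1.93 to 4.10, -2.04 to -0.73, -5.39 to -3.54, -4.08 to -2.53 and -2.11 to -1.66 in the same order.

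A single member turned direction in 22 cases, none called. In nintedanib against vehicle, Myh1 was 1.22 on the slide of 8 arrays, 0.42 with the replicate block and 0.0079 with array weights, and ranged from -0.89 to 0.63 (0.29 without nintedanib 4) when 1 array was left out. Under the same omissions Myh2 ranged from -0.16 (without vehicle 1) to 1.86 and Mylpf from -0.26 (without nintedanib 3) to 1.41. In B20 against vehicle, Myh1 ranged from -0.062 to 1.92 and Myh2 from -0.44 to 2.51, both lowest without B20 1. In nintedanib against B20, Myh2 was 0.11 with no scaling and 0.13 on the slide of 8, and ranged from -1.87 to 1.08 (0.08 without B20 3, 0.41 without nintedanib 4). There Acta1 ranged from -1.48 to 0.93 (0.12 without nintedanib 4), Actn3 from -2.16 to 0.36, Ckm from -2.30 to 0.21, Myh4 from -1.79 to 0.36 and Tnnt3 from -2.08 to 0.30, each highest without B20 1. In B20 against T0, Ckm ranged from -2.28 to 0.23 (without B20 4) and was 0.16 without T0 1. The causes were not tested.

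Asking for probes well above background on all 15 arrays removed Myh2 and Mylpf, so no count or median of the 10 was given for it. The normexp correction used median spot signals in place of mean ones. Signal over background limits Mylpf most.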
